A study of Mus musculus with 8 samples.

Results

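Immediate early genes are transcribed within minutes of a stimulus, before any new protein is made. The 8 considered here were Fos, Jun, Junb, Atf3, Egr1, Ier2, Dusp1 and Zfp36, chosen by name, with earlier results of these data known. Every probe set of the array annotated to them was taken, whatever its values. They were read by 13 of 12422 probe sets, of which 10, at least 1 for each gene, passed the filter on low values and were tested. Fos, Jun, Junb, Atf3 and Egr1 encode DNA-binding transcription factors, whereas Dusp1 encodes a phosphatase, Zfp36 an RNA-binding protein and Ier2 a nuclear protein with no well defined DNA-binding domain, so the set is wider than transcription factors alone. RNA of whole mouse colon was hybridised to 8 Affymetrix MG_U74Av2 arrays, 1 for each pool of animals. The genes lie on chromosomes 12 (Fos), 4 (Jun), 8 (Junb and Ier2), 1 (Atf3), 18 (Egr1), 17 (Dusp1) and 7 (Zfp36). The groups were C3H/HeJBir carrying the targeted allele Il10tm1Cgn, C3H/HeJBir wild type, C57BL/6J carrying Il10tm1Cgn and C57BL/6J wild type, with 2 pools each, and the mice with the targeted allele are called Il10-null. Il10tm1Cgn is a targeted mutation of Il10, which encodes the anti-inflammatory cytokine interleukin 10, and is present in every cell type. A pool combined 7 µg of RNA from each of 5 animals in C57BL/6J and in C3H/HeJBir Il10-null sample 1, and from each of 4 animals in the other C3H/HeJBir pools. An age of 4 weeks is stated for C57BL/6J wild-type sample 2 only, and neither sex nor treatment is stated.

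In the classical pathway, growth factors, cytokines and stress activate the MAP kinases, which phosphorylate ternary complex factors and the cAMP response element binding protein already bound at immediate early promoters. Fos and Jun proteins then pair as AP-1, which drives a later wave of genes, while Dusp1 dephosphorylates the MAP kinases and Zfp36 speeds the decay of AU-rich messenger RNAs, so that the response includes its own brakes. In macrophages interleukin 10 is itself known to induce Zfp36 through Stat3. In the gut these genes are known to respond to growth factors and inflammatory mediators in epithelium, stroma and immune cells, and whole colon holds all of these.

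Promoter sequences of Fos, Atf3 and Dusp1 are shown because they held the same 6 letter motif, and the levels of Fos and Atf3 were correlated across the pools, as described below. The windows run from 250 bases before to 50 bases after the transcription start, 300 bases in all, on the strand of the gene, and come from RefSeq on GRCm38.p6. Windows were used for 6 of the 8 genes, without Egr1 and Ier2. The motif counts therefore say nothing about Egr1 or Ier2. The cAMP response element core TGACGT, searched on both strands, lay in 3 of these 6 windows, against 7.51% of 32851 mouse promoter windows of the same length. Its first base stood 66 bases before the start in Fos, 8 bases before it in Atf3, on the opposite strand, and 191, 143 and 141 bases before it in Dusp1, where the last pair overlap on opposite strands. Capitals mark these matches in the following windows, Fos at chr12:85473640-85473939 on the plus strand, Atf3 at chr1:191183284-191183583 on the minus strand and Dusp1 at chr17:26508423-26508722 on the minus strand.
Fos: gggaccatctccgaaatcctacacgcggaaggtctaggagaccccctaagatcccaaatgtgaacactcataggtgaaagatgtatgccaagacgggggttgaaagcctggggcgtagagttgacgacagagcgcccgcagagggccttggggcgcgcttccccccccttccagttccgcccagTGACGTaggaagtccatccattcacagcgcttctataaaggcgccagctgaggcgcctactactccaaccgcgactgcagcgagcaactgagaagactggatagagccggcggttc
Atf3: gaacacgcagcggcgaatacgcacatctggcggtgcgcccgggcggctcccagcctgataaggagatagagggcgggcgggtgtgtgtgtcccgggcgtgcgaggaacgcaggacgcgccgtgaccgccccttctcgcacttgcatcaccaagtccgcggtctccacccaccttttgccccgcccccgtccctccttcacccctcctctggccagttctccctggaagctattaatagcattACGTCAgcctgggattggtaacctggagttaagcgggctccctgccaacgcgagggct
Dusp1: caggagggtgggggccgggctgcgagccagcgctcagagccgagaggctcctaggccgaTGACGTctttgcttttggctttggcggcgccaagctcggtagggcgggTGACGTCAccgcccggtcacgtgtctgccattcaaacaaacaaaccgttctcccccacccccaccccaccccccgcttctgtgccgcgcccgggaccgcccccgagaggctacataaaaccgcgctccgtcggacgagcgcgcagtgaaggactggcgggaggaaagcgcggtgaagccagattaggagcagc
The AP-1 motif TGANTCA, also searched on both strands, lay in 0 of the 6 windows and in 7.81% of all windows. The TATA box letters TATAAA, searched on the strand of the gene, lay in 2 of the 6, Fos with its first base 33 bases before the start and Junb at the start itself, and in 8.32% of all windows. A match describes these letters only and is not a measured binding site.

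The arrays had median intensities of 50.1 to 62.2 over all probe sets. Among markers of the colon, the 6 goblet cell genes on the array read at least 3066 on every array, and the 6 tested of 7 absorptive colonocyte genes at least 330, while the remaining one did not pass the filter. Il10 itself read 28.3 and 35.4 in C3H/HeJBir Il10-null pools against 5.43 and 10.9 in C3H/HeJBir wild type, and 51.7 and 22.0 in C57BL/6J Il10-null pools against 9.70 and 7.34 in C57BL/6J wild type. The position of its probes relative to the mutation is unknown here, and these values therefore check no label. The file headers give 3 hybridisation days: sample 1 Il10-null pools of both strains on day 1, sample 1 wild-type pools on day 2, and all 4 sample 2 pools on day 3. Only sample 2 thus offers a comparison of genotypes on a single day, whereas every day held both strains, and differences are given for both sample numbers. The C3H/HeJBir Il10-null sample 1 array stood apart from the rest, with a mean Spearman coefficient of 0.915 with the other arrays against 0.931 to 0.945 for the others. The 2 tested neutrophil markers of 7 on the array summed to 640 in that pool against 175 to 339 elsewhere. The median deviation of its 4 tested enteric neuron and glia markers from their means over the arrays was -1.20 log2 units. Their sum in that pool, 472, lay within the 366 to 638 of the other pools, and the lowest of them read 4.64 there. Smooth muscle markers summed to 9693 there against 11895 to 17316 elsewhere, and fibroblast markers to 3453 against 4650 to 6251. The 6 exocrine pancreas markers were highest in both sample 1 Il10-null pools, with sums of 4228 in C3H/HeJBir and 3129 in C57BL/6J against 1248 to 2511 in the other 6 pools. The sample 2 pools read 2.84 to 12.9 for Xist, expressed from the inactive X chromosome of females, against 243 to 452 in the sample 1 pools. Eif2s3y, a gene of the Y chromosome, read 256 to 411 in the sample 2 pools, and in the sample 1 pools 242 and 318 in C3H/HeJBir Il10-null and wild type, against 113 and 39.7 in C57BL/6J Il10-null and wild type. The part of these differences in the results was not tested.

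Fos, whose protein pairs with Jun in AP-1, read 905 and 533 in C3H/HeJBir Il10-null pools, 457 and 375 in C3H/HeJBir wild type, 1075 and 733 in C57BL/6J Il10-null pools and 614 and 718 in C57BL/6J wild type, with sample 1 before sample 2 here and throughout. It was lowest in the wild-type pools of C3H/HeJBir and highest in the sample 1 pools of both Il10-null groups. The group means were 719 ± 263, 416 ± 57.8, 904 ± 242 and 666 ± 73.2 in the same order (SD, n = 2 each), and the SDs of the Il10-null groups are wide because their sample 1 pools were high. In whole tissue, a change in the number of cells that hold the RNA cannot be told apart from a change in the RNA per cell. A further Fos probe set read 2.41 to 27.7 and did not pass the filter.

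Jun, the partner of Fos, read 186 and 220 in C3H/HeJBir Il10-null pools, 155 and 144 in C3H/HeJBir wild type, 186 and 242 in C57BL/6J Il10-null pools and 225 and 179 in C57BL/6J wild type. Both C3H/HeJBir wild-type pools lay below the other 6. Junb, a related AP-1 subunit, read 449 and 229 in C3H/HeJBir Il10-null pools, 302 and 239 in C3H/HeJBir wild type, 280 and 272 in C57BL/6J Il10-null pools and 273 and 295 in C57BL/6J wild type. The C3H/HeJBir Il10-null group thus held both the highest and the lowest Junb value. The other, dimmer Junb probe set was lowest in the pool where the brighter was highest, at 141 in a range of 141 to 180, so the 2 probe sets disagree.

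Atf3, a stress-induced factor that binds AP-1 and cAMP response element sites, read 403 and 222 in C3H/HeJBir Il10-null pools, 186 and 158 in C3H/HeJBir wild type, 333 and 330 in C57BL/6J Il10-null pools and 232 and 294 in C57BL/6J wild type. Its order of pools was close to that of Fos, with the C3H/HeJBir wild-type pools lowest. A further tested Atf3 probe set had 240 and 118 in C3H/HeJBir Il10-null, 102 and 99.3 in C3H/HeJBir wild type, 175 and 151 in C57BL/6J Il10-null, and 135 and 165 in C57BL/6J wild type. It gave the same highest and lowest pools. The remaining Atf3 probe set read at most 5.05 and was not tested. Egr1, a zinc finger factor, had 159 and 117 in C3H/HeJBir Il10-null pools, 142 and 113 in C3H/HeJBir wild type, 123 and 119 in C57BL/6J Il10-null pools and 110 and 147 in C57BL/6J wild type. All 4 groups overlapped, and Egr1 had the narrowest spread over pools of the brightest probe sets of the 8 genes, with a highest to lowest ratio of 1.45 against 2.87 for Fos. Its other probe set ran from 1.10 to 33.4 and was not tested.

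Ier2, named for its early induction by serum, read 185 and 279 in C3H/HeJBir Il10-null pools, 234 and 315 in C3H/HeJBir wild type, 302 and 237 in C57BL/6J Il10-null pools and 176 and 185 in C57BL/6J wild type. Its lowest values were the C57BL/6J wild-type pools, unlike those of Fos, Jun and Atf3. Dusp1 had 213 and 216 in C3H/HeJBir Il10-null pools, 203 and 228 in C3H/HeJBir wild type, 330 and 279 in C57BL/6J Il10-null pools and 266 and 230 in C57BL/6J wild type. All C57BL/6J pools lay above all C3H/HeJBir pools, but narrowly, at 230 in the lowest of the former against 228 in the highest of the latter. The share of all tested probe sets separated in this way was not counted. Zfp36 read 275 and 180 in C3H/HeJBir Il10-null pools, 180 and 198 in C3H/HeJBir wild type, 261 and 232 in C57BL/6J Il10-null pools and 241 and 202 in C57BL/6J wild type. Its highest pool was again C3H/HeJBir Il10-null sample 1.

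**Figure D1:**
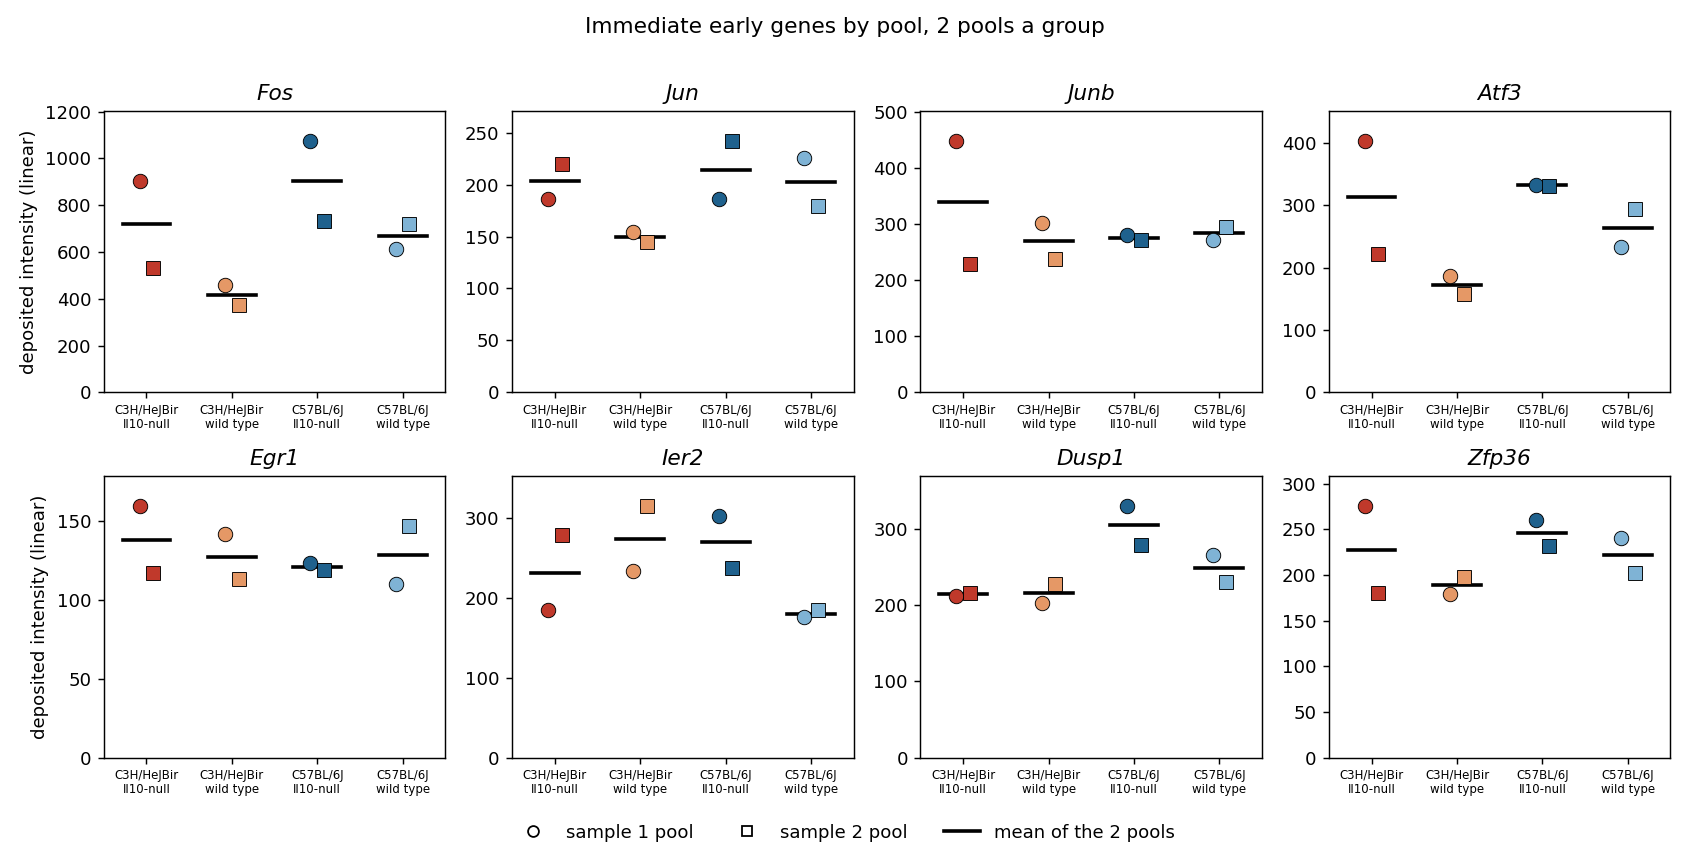
Deposited intensity (linear axis from 0, a scale of its own for each gene) of the brightest probe set of the 8 genes in the 8 pools, with circles for sample 1, squares for sample 2 and bars for the mean of the 2 pools. Fos and Atf3 were lowest in the C3H/HeJBir wild-type pools, and Ier2 in the C57BL/6J wild-type pools.

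The Il10-null pools of C3H/HeJBir were compared with their wild type to ask what loss of interleukin 10 changed in this strain, which is known as the more susceptible to colitis. Atf3 was higher by 0.77 ± 0.31 on the log2 scale of intensity plus 11.07 (SE; 95% interval 0.07 to 1.47), or 1.70-fold, and Fos by 0.73 ± 0.32 (interval -0.00 to 1.47), or 1.66-fold. Neither passed limma's test after Benjamini-Hochberg adjustment over the 7453 tested probe sets (adjusted p = 1.00 for each). Jun was at 0.41 (-0.15 to 0.97), Junb at 0.25 (-0.49 to 0.99), Zfp36 at 0.23 (-0.37 to 0.83) and Egr1 at 0.10 (-0.49 to 0.70). Dusp1 stood at -0.00 (-0.52 to 0.51) and Ier2 at -0.24 (-0.89 to 0.40). The intervals of all but Atf3 held 0, with each gene read by its brightest probe set. The other tested Atf3 probe set stood at 0.69, and its interval held 0 (-0.05 to 1.43).

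Over the 8 genes the C3H/HeJBir genotype difference had a median of 0.24, with 6 of 8 positive. The median over all tested probe sets was -0.01, and 48.5% of them were positive. At an adjusted p under 0.05, 0 of 10 member probe sets were called, where 0.0134% of all tested ones were. At an unadjusted p under 0.05 in the same limma fit across all probe sets there was 1 of 10, the brightest of Atf3 (0.0357), where 2.83% of all tested probe sets were. The Il10-null pools lay entirely above the wild-type pools for 4 of 10 member probe sets (Fos, Jun and both of Atf3), where 11.3% of all tested ones did so, and entirely below for 0 of 10, where 12.0% did. These counts are not of independent genes, since Atf3 enters with 2 probe sets and Fos and Atf3 moved together.

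The size of the C3H/HeJBir difference rested on its sample 1 pools. Between them Atf3 differed by 1.07, Fos by 0.97, Zfp36 by 0.59 and Junb by 0.55, against 0.46, 0.49, -0.12 and -0.06 between the sample 2 pools, which shared a hybridisation day. The median of the 8 genes was 0.40 in the sample 1 pools and -0.01 in the sample 2 pools, against -0.04 and 0.02 over all tested probe sets. Without the sample 1 Il10-null pool, in which neutrophil and exocrine pancreas markers were also highest, the differences were 0.36 for Fos and 0.35 for Atf3, and without the sample 2 Il10-null pool they were 1.11 and 1.18. Jun was the exception, with 0.25 between the sample 1 pools and 0.57 between the sample 2 pools.

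The same question was asked in C57BL/6J, where the largest difference was that of Ier2, higher in Il10-null pools by 0.54 ± 0.28 (interval -0.10 to 1.19), or 1.46-fold. Fos was at 0.41 ± 0.32 (-0.32 to 1.15), Atf3 at 0.33 (-0.37 to 1.03), Dusp1 at 0.28 (-0.23 to 0.79) and Zfp36 at 0.15 (-0.46 to 0.75). Jun, Junb and Egr1 lay at 0.08, -0.04 and -0.07. None passed (limma adjusted p = 1.00 for each), and every interval held 0. The median over the 8 genes was 0.21, with 6 of 8 positive, against -0.01 over all tested probe sets, with 48.9% positive. By sample number the median of the 8 genes was 0.22 in the sample 1 pools and 0.18 in the sample 2 pools, although Fos differed by 0.80 in the first and 0.03 in the second and Jun by -0.26 and 0.41.

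In C57BL/6J, 0 of 10 member probe sets were called at an adjusted p under 0.05, where 0% of all tested ones were, and 0 of 10 had an unadjusted limma p under 0.05, where 1.58% did. The Il10-null pools lay entirely above wild type for 4 of 10 (Fos, the brightest of Atf3, Ier2 and Dusp1), where 12.6% of all tested probe sets did, and entirely below for 0 of 10, where 13.6% did. For Fos the gap was narrow, at 733 in the lower Il10-null pool against 718 in the higher wild-type pool. Dusp1 was the gene of this strain whose difference was most alike in both sample numbers, at 0.30 and 0.27.

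**Figure D2:**
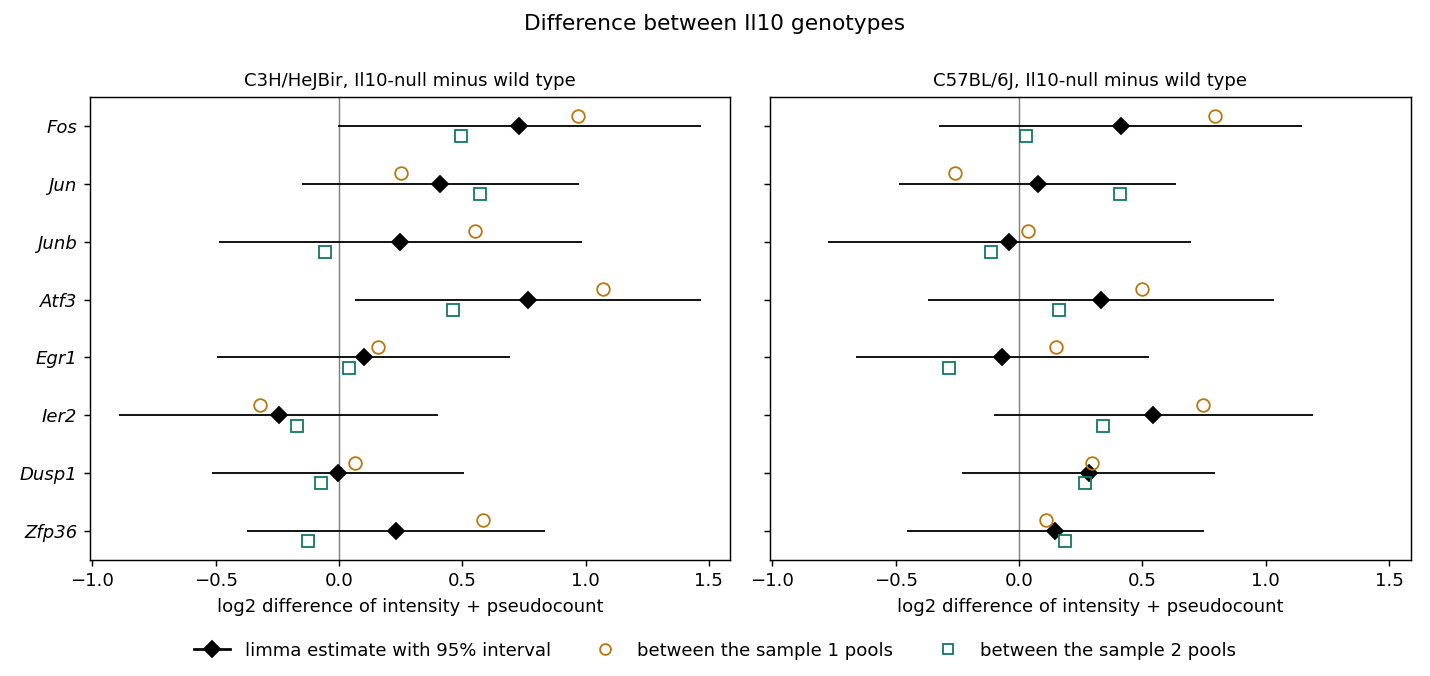
Log2 difference of intensity plus 11.07, Il10-null minus wild type, for the 8 genes in C3H/HeJBir (left) and C57BL/6J (right), with diamonds and bars for the limma estimate and its 95% interval, circles for the difference between sample 1 pools and squares for that between sample 2 pools. Each gene is read by its brightest probe set. The interval of Atf3 in C3H/HeJBir, 0.07 to 1.47, was the only one drawn that did not hold 0, and that of the other tested Atf3 probe set, not drawn, held 0 (-0.05 to 1.43).

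Averaged over both strains, the Il10-null minus wild-type difference was positive for all 8 genes on their brightest probe sets, and for 47.4% of all tested probe sets. The 8 genes ran from 0.02 for Egr1 to 0.57 for Fos, with a median of 0.17 against -0.01 over all tested probe sets. Their signs are not independent, since Fos and Atf3 moved together. Fos (0.57 ± 0.23, interval 0.05 to 1.09) and Atf3 (0.55 ± 0.22, interval 0.05 to 1.05) were higher in 4 of 4 pairs of the same strain and sample number. The share of all tested probe sets that did so was not counted. The other tested Atf3 probe set averaged 0.40 (-0.12 to 0.93) and was lower, at -0.12, in the C57BL/6J sample 2 pair. At an adjusted p under 0.05, 0 of 10 member probe sets were called, as were 0% of all tested ones. At an unadjusted limma p under 0.05 there were 2 of 10, Fos (0.0347) and the brightest of Atf3 (0.0340), where 3.09% of all were. Among the sample 2 pools alone, which shared a hybridisation day, 6 of 8 genes were positive, where 52.5% of all tested probe sets were. Junb stood there at -0.09 and Egr1 at -0.12, and Fos and Atf3 at 0.26 and 0.31. For this average, a block on the hybridisation day gives these same sample 2 values by construction, since the other days held 1 genotype each.

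Whether the Il10 effect differed between the strains was tested by the interaction, C3H/HeJBir minus C57BL/6J. Ier2 had the largest value, at -0.79 ± 0.40 (interval -1.70 to 0.13), with a difference of -0.32 and -0.17 in C3H/HeJBir and of 0.75 and 0.34 in C57BL/6J, so the pairs of pools of the strains lay on opposite sides of 0. This interaction of Ier2 did not pass (limma adjusted p = 1.00), and the share of all tested probe sets with such opposite signs was not counted. Atf3 stood at 0.44 (-0.56 to 1.43) and Fos at 0.32 (-0.72 to 1.36), and the other 5 genes lay between -0.29 and 0.33, with wide intervals that leave differences of either sign possible. The median of the 8 genes was 0.23 against -0.01 over all tested probe sets. At an adjusted p under 0.05, 0 of 10 were called, where 0% of all tested probe sets were, and 0 of 10 had an unadjusted p under 0.05, where 1.50% did.

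The strains were then compared within each genotype, C3H/HeJBir minus C57BL/6J, in comparisons that share their groups with those between genotypes. In wild type, 7 of 8 genes were lower and Ier2 was higher, where 47.2% of all tested probe sets were higher. Fos stood at -0.67 ± 0.32 (interval -1.40 to 0.07), or 0.629-fold, Atf3 at -0.58 (-1.28 to 0.12) and Jun at -0.40 (-0.96 to 0.16), against 0.56 (-0.08 to 1.21) for Ier2. Zfp36, Dusp1, Junb and Egr1 lay at -0.22, -0.19, -0.07 and -0.00. None passed (limma adjusted p from 0.951 to 1.00). The median was -0.21 over the genes, against -0.02 over all tested probe sets, and it was -0.34 in sample 1 and -0.29 in sample 2 pools, each pair of which shared a hybridisation day.

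In wild type 0 of 10 member probe sets were called at an adjusted p under 0.05, where 0.403% of all tested ones were, and 0 of 10 had an unadjusted limma p under 0.05, where 5.68% did. C3H/HeJBir pools lay entirely below C57BL/6J pools for 6 of 10 (Fos, Jun, both of Atf3, Dusp1 and Zfp36), where 17.0% of all tested probe sets did. They lay entirely above for 1 of 10, Ier2, where 14.0% did.

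Among Il10-null pools the strain differences were smaller for Fos (-0.35, interval -1.08 to 0.39), Atf3 (-0.14, -0.84 to 0.56) and Jun (-0.07, -0.63 to 0.49), and larger for Dusp1, at -0.48 (-0.99 to 0.03). Ier2 stood at -0.23, with -0.68 between the sample 1 pools and 0.22 between the sample 2 pools. The estimates of Junb (0.21) and Egr1 (0.16) were positive and that of Zfp36 was -0.13. The differences of Atf3, Junb, Zfp36 and Egr1 also had opposite signs in the sample numbers, at 0.27, 0.66, 0.08 and 0.34 in sample 1 and -0.55, -0.23, -0.34 and -0.02 in sample 2. The median of the genes was -0.14, against -0.02 over all tested probe sets, with 0.04 in sample 1 and -0.29 in sample 2 pools. At an adjusted p under 0.05, 0 of 10 were called, where 0.295% of all tested probe sets were, and 0 of 10 had an unadjusted limma p under 0.05, where 5.17% did. C3H/HeJBir lay entirely below for 2 of 10 (Dusp1 and the dimmer Junb probe set), where 15.3% of all did, and entirely above for 0 of 10, where 11.9% did.

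**Figure D3:**
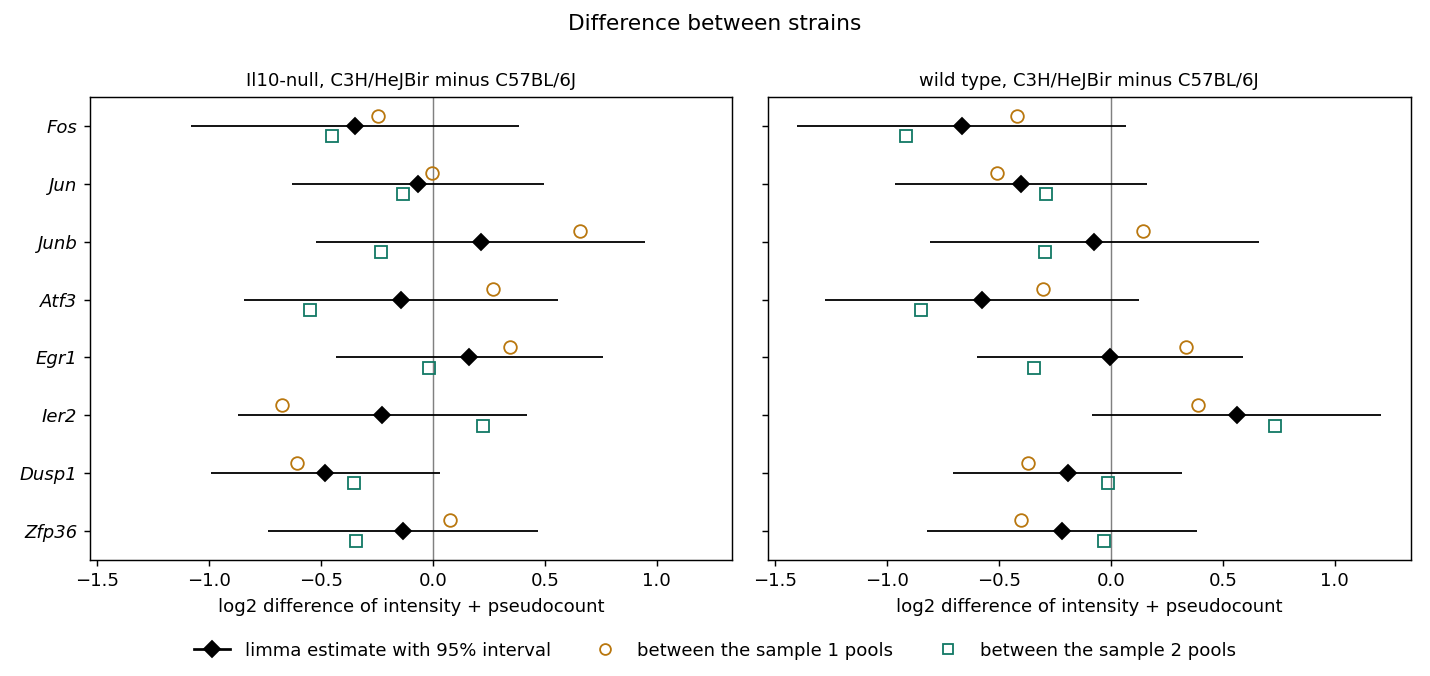
Log2 difference of intensity plus 11.07, C3H/HeJBir minus C57BL/6J, for the 8 genes in Il10-null (left) and wild-type pools (right), with the limma estimate and 95% interval as diamonds and bars and the difference of each sample number as circles (sample 1) and squares (sample 2). All intervals held 0, and in wild type Ier2 lay to the right of 0 and the other 7 estimates at or to the left of it.

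Averaged over the genotypes, the strain difference was -0.51 ± 0.23 for Fos (interval -1.03 to 0.01), -0.36 for Atf3, -0.34 for Dusp1 and -0.23 for Jun, and the median of the 8 genes was -0.20, against -0.02 over all tested probe sets. Of the 10 member probe sets 0 were called at an adjusted p under 0.05, where 1.11% of all were, and the lowest adjusted p among them was 0.610, that of Fos. At an unadjusted limma p under 0.05 there were 0 of 10, where 8.43% of all were.

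Sample 2 pools were set against sample 1 pools over the 4 groups, since the sample numbers differ in hybridisation day and in Xist. Fos stood at -0.34 (interval -0.79 to 0.11), Junb at -0.30 and Zfp36 at -0.21, each lower in sample 2 than in sample 1 in 3 of 4 groups, and Ier2 stood at 0.18, higher in 3 of 4. The median of the genes was -0.14 against -0.06 over all tested probe sets. Of the 10 member probe sets 0 were called at an adjusted p under 0.05, where 0.148% of all were, and 0 had an unadjusted limma p under 0.05, where 20.8% of all did. The direction of the members' mean in this comparison depended on the scaling, at -0.12 as deposited and 0.08 after scaling to a common median, which moved the median of all tested probe sets to 0.14.

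The genes did not move as 1 block over the 8 pools. Of their 28 pairs, 18 had a positive Pearson correlation, with a median of 0.36, and 2 passed an exact two-sided permutation test of 40320 orders adjusted over the 28. The pools share groups and hybridisation days, which these tests do not take into account, so r is also given, with no test, for values centred on the mean of their day or of their group. In a group of 2 pools the centred values mirror each other. The r within groups therefore rests on the differences between sample 1 and sample 2 pools, which also differ in hybridisation day. Fos and Atf3 had r = 0.939 (n = 8, exact permutation p = 0.000794, adjusted p = 0.0222) and Spearman's rho = 0.976 (exact permutation p = 0.000397, adjusted p = 0.0111), and r was 0.982 without the 2 pools farthest from the median of Fos, 0.894 within days and 0.836 within groups. Both genes held the TGACGT motif in their printed windows, as did Dusp1, whose r with Fos was 0.588 and with Atf3 0.387 (exact permutation adjusted p = 0.439 and 0.528). Zfp36 held no such motif and had higher coefficients, r = 0.801 with Fos and 0.772 with Atf3 (exact permutation adjusted p = 0.180 and 0.222).

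Junb and Egr1 had r = 0.830 (n = 8, exact permutation p = 0.00258, adjusted p = 0.0361), but their rho of 0.810 did not pass (exact permutation p = 0.0218, adjusted p = 0.152), and r was 0.782 without the 2 pools farthest from the median of Junb, 0.833 within days and 0.825 within groups. This holds for the brighter Junb probe set only. The dimmer one was lowest, at 141, in the pool where Egr1 was highest, at 159, and its correlation with Egr1 was not computed. Ier2 was negatively correlated with 6 of the 7 other genes, at most strongly with Junb (r = -0.593, exact permutation adjusted p = 0.392). Jun and Fos, partners in AP-1, had r = 0.425 (exact permutation adjusted p = 0.521), with 0.730 within days and -0.773 within groups.

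**Figure D4:**
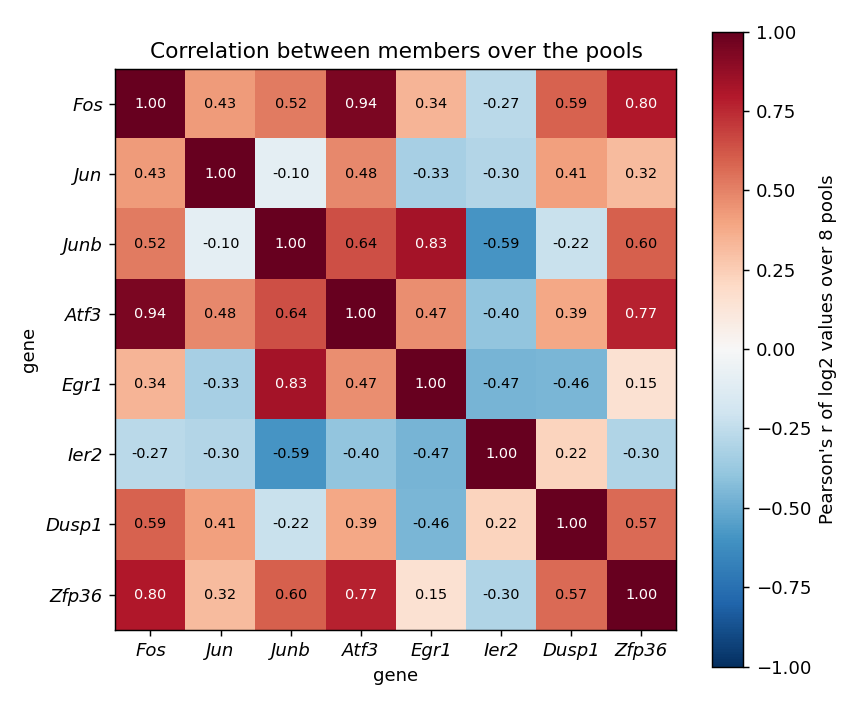
Pearson's r of log2 values over the 8 pools for each pair of the 8 genes, each read by its brightest probe set, on a colour scale from -1 (blue) to 1 (red). Fos with Atf3 (0.94) and Junb with Egr1 (0.83) were the highest pairs, and the row of Ier2 was negative except with Dusp1.

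**Figure D5:**
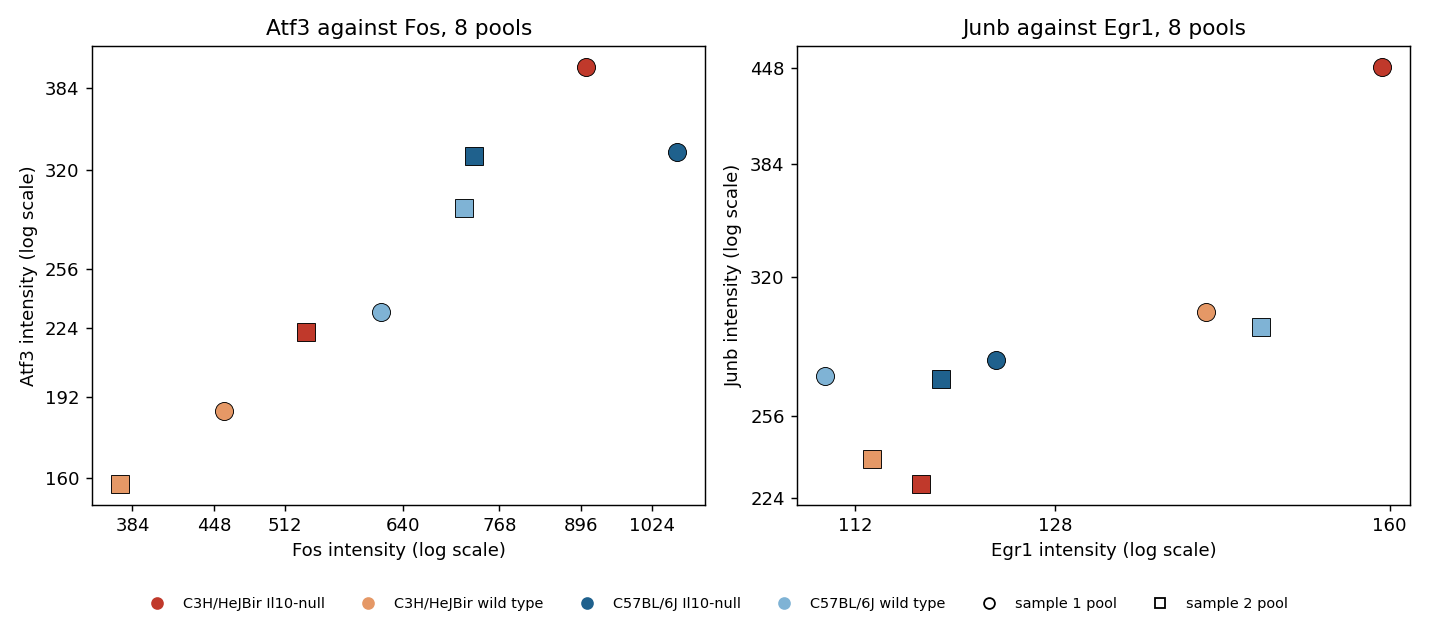
Intensity of Atf3 against Fos (left) and of Junb against Egr1 (right) in the 8 pools, on logarithmic axes, with colour for the group and circles and squares for sample 1 and sample 2. Each gene is read by its brightest probe set, and the dimmer Junb probe set disagrees with the one drawn. Atf3 and Fos rank nearly alike over the pools, from the sample 2 pool of C3H/HeJBir wild type at the bottom, whereas the Junb plot has its top point, 449, in C3H/HeJBir Il10-null sample 1, far from the others.

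The mean of the 8 genes' log2 deviations from their own means over the arrays gave each pool a level. It was 0.23 and -0.11 in C3H/HeJBir Il10-null pools, -0.19 and -0.25 in C3H/HeJBir wild type, 0.25 and 0.12 in C57BL/6J Il10-null pools and -0.05 and -0.00 in C57BL/6J wild type. Wild-type pools of C3H/HeJBir were lowest, and both sample 1 Il10-null pools highest, which were also the pools with the highest exocrine pancreas markers. Over the 8 pools the level of the marker lists, as the median deviation of their genes, correlated with it at r = -0.68 for goblet cells, 0.50 for neutrophils, -0.47 for B and plasma cells, 0.46 for exocrine pancreas, -0.46 for smooth muscle and -0.45 for fibroblasts, and between -0.24 and 0.29 for the other lists, as a description, and the part of these cells was not tested. Fos (r = 0.951), Atf3 (0.922) and Zfp36 (0.804) followed the level of the other 7 genes most closely, while Ier2 ran against it (-0.410), as a description over 8 pools.

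The tested genes outside the set whose values over the 8 arrays were most like this level, by Pearson's r, were Elf3 (0.980), Reep1 (0.965), Prpf38b (0.958), Cebpb (0.938), Cdk18 (0.935), Cry1 (0.927), Nsd1 (0.927) and E2f8 (0.927). They are the top 8 of 6718 candidates, of which 84 exceeded 0.8, and so many candidates over so few arrays make high values common. Elf3, an epithelial ETS factor, read 1590 and 1035 in C3H/HeJBir Il10-null pools, 978 and 953 in C3H/HeJBir wild type, 1794 and 1559 in C57BL/6J Il10-null pools and 1262 and 1257 in C57BL/6J wild type. Cebpb, a leucine zipper factor of inflammatory responses, read 193 and 133 in C3H/HeJBir Il10-null pools, 112 and 120 in C3H/HeJBir wild type, 166 and 165 in C57BL/6J Il10-null pools and 137 and 154 in C57BL/6J wild type. Like Fos and Atf3, both had their lowest pools in C3H/HeJBir wild type, a pattern that their choice by likeness to this level favours.

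Of 52 other immediate early genes on the array, 42 were tested, and 0 rose and 0 fell in each of the 8 comparisons by limma at an adjusted p under 0.05. At an unadjusted limma p under 0.05 there were 3 of 42 for the genotype difference in C3H/HeJBir, where 2.83% of all tested probe sets were, 2 in C57BL/6J (1.58% of all), 2 for the interaction (1.50%), and 5 for the average Il10 effect (3.09%). There were 6 for the strain difference in Il10-null pools (5.17% of all), 0 in wild type (5.68%), 5 for the average strain effect (8.43%) and 3 for the sample number (20.8%). Their medians were 0.11 for the genotype difference in C3H/HeJBir and 0.06 in C57BL/6J, and -0.14 and -0.15 for the strain difference in Il10-null and wild-type pools. In C3H/HeJBir the largest genotype differences were those of Socs3, a feedback inhibitor of cytokine receptors (1.79), and Nfkbiz, a nuclear regulator of NF-kB targets (1.01), and, in the other direction, that of Btg2, an antiproliferative gene, at -1.28. Btg2 lies on chromosome 1, as Il10 does, and whether it lies in sequence carried along with the targeted allele was not tested. Socs3 read 290 and 133 in C3H/HeJBir Il10-null pools against 22.6 and 96.4 in wild type, so that its difference was 3.16 in sample 1 and 0.42 in sample 2. Nfkbiz read 364 and 260 in Il10-null pools of that strain against 134 and 163 in wild type, without overlap, as was so for 11.3% of all tested probe sets.

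In C57BL/6J the largest genotype difference of the other immediate early genes was that of Dusp2, a nuclear MAP kinase phosphatase, which read 13.3 and 37.6 in Il10-null pools against 93.5 and 120 in wild type (log2 difference -1.77, limma adjusted p = 1.00). In C3H/HeJBir its pools stood the other way, at 162 and 70.1 in Il10-null against 78.3 and 48.1 in wild type, and the interaction of 2.47 did not pass (adjusted p = 1.00). Dusp1, the phosphatase among the 8, had an interaction of -0.29, of opposite sign. Gadd45g, a stress sensor, and Fosl2, a Fos family member, followed in C57BL/6J with 1.05 and 0.72. Btg2 had an interaction of -1.09, with -1.13 in sample 1 and -1.06 in sample 2, whereas that of Socs3, 1.13, was 3.24 in sample 1 but -0.99 in sample 2. Between strains the kinase gene Sgk1 was at -1.22 in Il10-null and -0.73 in wild-type pools (limma adjusted p = 0.447 and 0.943), Dusp2 at 1.79 and -0.69 there, Socs3 at 1.13 in Il10-null pools (2.54 in sample 1 but -0.28 in sample 2) and Gadd45g at 0.76 in wild-type pools. In the average Il10 effect Socs3, Gadd45g and Btg2 led, at 1.23, 0.77 and -0.73, and in the average strain effect Sgk1, Gadd45b and Nr4a1, at -0.97, -0.66 and -0.65. Sample 2 minus sample 1 was led by Socs3 (0.66), Gadd45g (-0.56) and Plk2 (-0.52), and none of these passed (limma adjusted p of at least 0.164).

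Among 15 tested of 22 upstream kinases, adaptors and serum response factors on the array, 1 was called, in the average strain effect. In that effect 1.11% of all tested probe sets were called. At an unadjusted limma p under 0.05 there were 2 of 15 for the genotype difference in C3H/HeJBir (2.83% of all). C57BL/6J had 0 (1.58%) and the interaction 0 (1.50%). The strain difference had 2 in wild type (5.68%) and 1 in Il10-null pools (5.17%). The average Il10 effect had 1 (3.09%), the average strain effect 1 (8.43%) and the sample number 2 (20.8%). Grb2, the adaptor that links growth factor receptors to Ras and so to the MAP kinases, read 68.7 and 93.7 in C3H/HeJBir Il10-null pools against 246 and 234 in C57BL/6J Il10-null pools, and 116 and 131 in C3H/HeJBir wild type against 194 and 232 in C57BL/6J wild type. It fell in C3H/HeJBir by 1.10 on the log2 scale (limma adjusted p = 0.0235), without overlap of the strains, and within Il10-null pools the strain difference was -1.46 (adjusted p = 0.0621). Whether the strains differ in sequence under these probes was not tested. No other gene of the list passed. In C3H/HeJBir the largest genotype differences were those of the MAP kinase kinase Map2k2 (0.78), Grb2 (-0.55) and Stat3, which carries the interleukin 10 signal (0.51), and in C57BL/6J those of the Ras activator Sos1 (0.38) and the MAP kinase kinases Map2k1 (0.35) and Map2k6 (0.29). The interactions were led by Map2k2 (0.89), Grb2 (-0.72) and Map2k1 (-0.51). Stat3 read 498 and 414 in C3H/HeJBir Il10-null pools against 294 and 338 in wild type, and 348 and 404 in C57BL/6J Il10-null pools against 332 and 294 in wild type. Its pools did not overlap in C3H/HeJBir, where 11.3% of all tested probe sets were likewise higher, nor in C57BL/6J, where 12.6% were. The average Il10 effect of Stat3, 0.38, led the list but did not pass (limma adjusted p = 1.00), before Sos1 and Map2k2 at 0.34 each. Strain differences after Grb2 were -0.36 for Mapk14 and 0.27 for Stat3 in Il10-null pools, -0.69 for Map2k2 and 0.46 for Map2k1 in wild type, and 0.26 for Mapk9 and -0.24 for Map2k2 on average. Sample 2 minus sample 1 was led by Mrtfa (-0.47), Mapk8 (0.45) and Sos1 (-0.32). The other AP-1 partners (10 tested) and the heat shock genes (16 tested) had 0 that rose and 0 that fell in each comparison by limma. At an unadjusted limma p under 0.05, the AP-1 partners had 0 in both strains' genotype differences and in the interaction, 1 in each strain difference, in the average Il10 effect and in the sample number, and 2 in the average strain effect. The heat shock genes had 1 in the genotype difference of C3H/HeJBir and 2 in that of C57BL/6J, 2 in the interaction, 3 and 1 in the strain differences of Il10-null and wild-type pools, 0 in the average Il10 effect, 2 in the average strain effect and 1 in the sample number, with the same shares of all probe sets beside them as for the other immediate early genes. The inducible heat shock genes Hspa1b and Hspa1a had interactions of -1.63 and -1.26 (limma adjusted p = 1.00 for each), of the same sign as Ier2. They were the 2 largest of the 16 heat shock genes in absolute value and were named after their values were seen. The interaction was positive for 6 of the 16, with a median of -0.19.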

How the data were processed

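Colon RNA of 8 mouse pools was hybridised to Affymetrix MG_U74Av2 arrays. The intensity deposited by the authors is 1 linear value per probe set, from 0.03 to 12860, and array means differed at most 1.05-fold, so the deposited scaling was kept. Neither the summary algorithm nor the scaling is stated in the sources used here. Hybridisation days came from the other values deposited by the authors, those of the experiment files.

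To each intensity 11.07, the 20th percentile, was added before log2 was taken. The test covered the 7453 of 12422 probe sets whose mean reached 37.0 (40th percentile). Symbols of the platform annotation were single for 10833 probe sets, multiple for 396 and absent for 1193. In R 4.3.3, limma 3.58.1 fitted 4 group means (4 residual and 4.23 prior degrees of freedom). Tests were two-sided and adjusted by Benjamini-Hochberg over all 7453, with 0.05 as the threshold. A further term gave the sample number effect. The labels call sample 2 an independent replicate, and a p value reflects the variation of pools, not of single animals. The pools of a group differed in sample number, so this variation includes any difference that goes with hybridisation day or with Xist. Precision is limited by there being 8 arrays. Spearman coefficients between the pools of a group ran from 0.920 to 0.947. Deviations from group means correlated at 0.198 to 0.332 between pools of the same sample number, in 6 pairs of groups, so the number served as a replicate block in an alternative.

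For genes with several probe sets the brightest was used. From the lists of other immediate early and upstream genes, the text names those that passed and, in each comparison, the 3 with the largest absolute difference, and also the 8 genes of most similar pattern. The heat shock genes were named after their values were seen. Members, gene lists and tests were chosen with earlier results of these data known. Correlations centred on days and groups were added after seeing the data. Permutation tests enumerated all orders of the pools. The fit was tested on simulated data.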

Additional observations from a re-analysis of the deposited data

Results flagged for a closer look

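The Ier2 difference between Il10-null and wild-type pools had opposite signs in the strains: it was negative in both C3H/HeJBir pairs of pools (-0.32 and -0.17) and positive in both C57BL/6J pairs (0.75 and 0.34). The difference between these effects was -0.79 on the log2 scale, with a 95% interval of -1.70 to 0.13, and the interaction did not pass (limma adjusted p = 1.00). Over the alternatives it ran from -1.07 to -0.51, with adjusted p from 0.911 to 1.00. Only the members were searched for such opposite signs, and the share of all tested probe sets that show them was not counted. Groups of 2 pools are too small for a check of single outlying samples.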

How the results depend on the processing

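The alternatives changed the pseudocount (2.76 or 56.7), the filter (none, or the 60th percentile), the scaling (quantile, or a common median), the moderation (trend and robust), the threshold (0.1) and the samples (the compared groups alone, sample 2 alone, or all but 1 pool). Others averaged a gene's probe sets or added a block, on the sample number or on the hybridisation day. All 154 counts of called member probe sets were 0, the replicate block on the sample number included. The lowest adjusted p of a member over the alternatives was 0.147. Of 1288 differences of single genes, 1222 kept their sign and 66 changed it, none of them called. The threshold, the filter, the moderation, the fit of the compared groups and the replicate block leave a difference unchanged by construction. Many of these signs therefore could not change, and the count does not measure robustness. The mean C3H/HeJBir genotype difference of the 8 genes, 0.28, was 0.11 without the sample 1 Il10-null pool, 0.45 without the sample 2 Il10-null pool and 0.14 within the sample 2 pools. The mean interaction, 0.07, was -0.10 and 0.24 without these pools, and the mean strain difference of Il10-null pools, -0.13, was -0.30 and 0.04. Scaling to a common median turned the mean sample number effect from -0.12 to 0.08, and the quantile setting moved the median of all tested probe sets in that comparison to 0.01. Of the 28 correlations, centring on days moved none beyond the 95% interval of the uncentred value, and centring on groups moved 4, all with Jun or Atf3. With 2 pools a group the SE of a difference was 0.32 log2 units for Fos and 0.31 for Atf3, which limits what could be detected for these genes.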
